A study of Mus musculus with 13 samples.

Results

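Matrix metalloproteinases are zinc-dependent proteases that cut collagen, elastin, proteoglycans and other components of the extracellular matrix. They are made as inactive precursors, and tissue inhibitors of metalloproteinases (TIMPs) block the active site of the mature enzymes. In the artery wall the balance between the proteases and the inhibitors is known for its part in matrix turnover, in remodelling and in aneurysm. The genes described here were Mmp2, Mmp3, Mmp9, Mmp14, Timp1, Timp2 and Timp3, taken as every probe set that the platform annotation assigns to one of these 7 genes. They are 7 of 8251 genes that the annotation names by a probe set of their own, with 12 of 12422 probe sets on the array, controls not counted.

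Expression was measured in aortae of c57/Bl6 mice that had been housed for 2 weeks in light and darkness of 12 h each and then for 36 h in constant darkness. Tissue was taken every 4 h over 48 h, and the labels give 6 aortae, pooled, for each of 12 circadian times (CT), CT18 to CT38 on the first day of sampling and CT42 to CT62 on the second. All pools were of the same strain and had no treatment other than darkness, and the labels give neither age nor sex. There were 13 one-colour arrays because CT18 had 2. The labels call the second CT18 array a second chip and do not say whether it came from the same pooled RNA; the 2 were averaged and counted as 1 pool, so that their difference may be technical or between pools. Thus each circadian hour (2, 6, 10, 14, 18 and 22) was sampled by 2 pools 24 h apart. Hours 2, 6 and 10 lie in the subjective day, when mice rest, and hours 14, 18 and 22 in the subjective night.

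Values are the deposited intensities on a linear scale, which fall below 0 for dim probe sets. Intensities below 36.7 were set to that floor before log2 was taken, and 7453 probe sets with a mean at or above an intensity of 48.5 (on the log2 scale, 5.60) were kept for testing. Of the marker genes fixed for smooth muscle, the main cell of the aortic wall, 5 of 6 were kept, and all 6 each for fibroblasts and endothelium. The sums below took every marker on the array, kept or not (10 genes for thymus and 5 for cartilage). Pool values below 0 were counted as 0 in them. The summed intensity of the smooth muscle markers lay between 9067 and 14394 over the pools, that of fibroblast markers between 13778 and 18218 and that of endothelial markers between 1341 and 2229. Macrophage markers (5 of 6 kept) summed to between 2062 and 2866, neutrophil markers (4 of 7) to between 506 and 1116, adipocyte markers (5 of 7) to between 16409 and 22018, and cartilage markers (2 of 6) to between 139.6 and 304. Of these, 1 neutrophil and 2 cartilage markers lay at the floor in every pool. Markers of neighbouring tissues varied more. Skeletal muscle markers (11 of 11 kept) summed to between 6123 in CT54 and 31712 in CT34, thymus markers (8 of 12) to between 501 in CT42 and 4694 in CT54, and atrial markers (4 of 5) to between 2694 in CT30 and 9029 in CT42. In pools of whole tissue, fewer cells of a type and less RNA per cell cannot be told apart.

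Of the 7 genes, 5 gave a signal. One probe set each of Mmp3, Mmp14, Timp1, Timp2 and Timp3 passed the intensity filter, and these 5 were above the floor on all 13 arrays. The gelatinases Mmp2 and Mmp9, which cut denatured collagen and the type IV collagen of basement membranes, did not. Both Mmp2 probe sets lay at the floor on every array, with intensities from -63.2 to 5.36 (161509_at) and from -54.2 to 19.8 (95663_at). The Mmp9 probe sets ran from -155 to -46.4 (99957_at) and from -22.6 to 30.9 (162369_f_at, whose suffix marks probes shared within a gene family). These values bound what the probes measured and do not show that the aorta lacked either message.

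The array held further probe sets of 2 inhibitors that disagreed with the ones kept. Timp1 measured between 185 and 489 by 101464_at but between -14.3 and 23.4 by 162107_r_at. Timp2 measured between 199 and 359 by 93507_at, between -28.6 and -0.798 by 161515_i_at and between -31.3 and 119 by 160116_at. The last rose above the floor on 1 array only, the second CT18 array, while the other CT18 array read 21.2. The 7 probe sets under the filter were not tested, and the results below rest on 1 probe set for each of 5 genes.

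**Figure D1:**
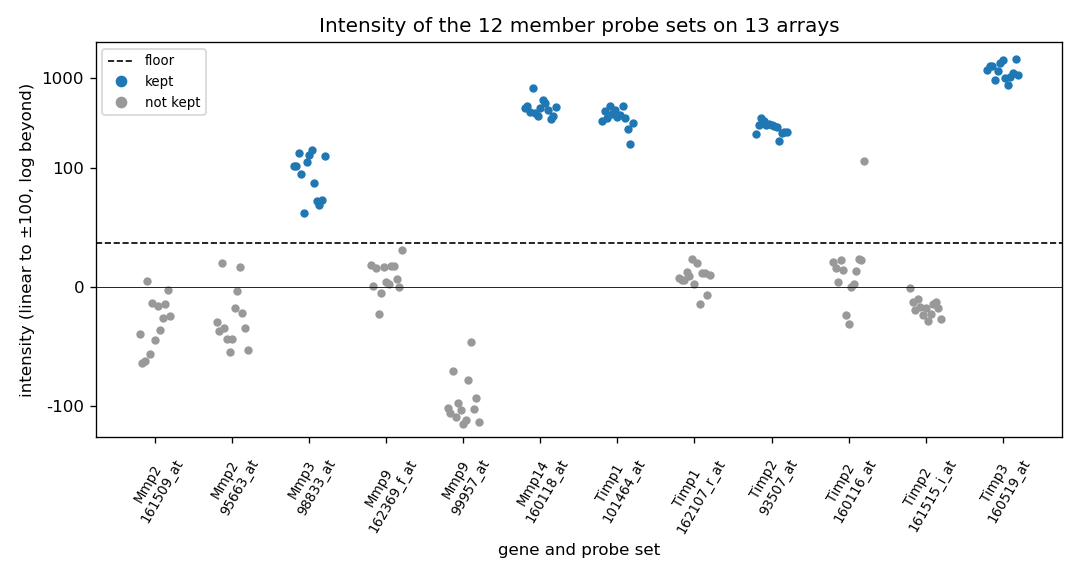
Intensity of each of the 12 probe sets on the 13 arrays, on an axis that is linear to 100 on both sides of 0 and logarithmic beyond, with 1 point per array. The 5 probe sets kept lie above the dashed floor of 36.7 on every array, and the other 7 lie at or below it except for 1 array of 160116_at.

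The secreted protease Mmp3 (stromelysin 1) degrades proteoglycans and several basement membrane proteins and activates other metalloproteinases. Its probe set 98833_at was the dimmest of the 5, with a mean of 103 ± 32.6 (SD, n = 12 pools). On the first day it measured 104 and 133 on the CT18 arrays, 104 at CT22, 147 at CT26, 94.8 at CT30, 61.8 at CT34 and 116 at CT38. On the second day it measured 138 at CT42, 159 at CT46, 87.0 at CT50, 72.1 at CT54, 68.8 at CT58 and 72.7 at CT62. Both pools of circadian hour 10 were low, and the subjective night pools of hours 18 and 22 were all above 100.

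By circadian hour Mmp3 averaged 117 ± 42.2 at 2, 83.4 ± 16.1 at 6, 65.3 ± 4.93 at 10, 94.4 ± 30.7 at 14, 128 ± 13.6 at 18 and 131 ± 38.7 at 22 (SD, n = 2 pools each). The highest hour, 22, was 2.01-fold above the lowest, 10. The pools of the highest and the lowest hour did not overlap in 3 of the 5 genes (Mmp3, Mmp14 and Timp3), beside 82.9% of all probe sets tested, since both hours are picked by their level, so this is no result about these genes. Among neighbours in the order of levels, the pools overlapped in 4 of 5 cases, the exception being hours 6 and 10. The hours are ordered by the levels of the same pools, and the share over all probe sets was not counted. Such counts of neighbours, here and below, are therefore no result about these genes. The fitted 24-h cosine had an amplitude (mean to peak) of 0.49 ± 0.14 on the log2 scale (SE, 12 pools) and a peak at CT21.3. Mmp3 had the smallest p of the 5 genes (0.0140), ranked 299 of 7453, but did not pass after Benjamini-Hochberg adjustment over all probe sets with limma (adjusted p = 0.349). Its amplitude lay above that of 91.0% of the probe sets tested, a share over probe sets of all intensities. An amplitude cannot be negative, so scatter between pools adds to it. With a floor at the 40th percentile of intensities, 95.0, which lies above several of its pools, the amplitude was 0.25 ± 0.09. Summed skeletal muscle markers were 31712 at CT34 and 21443 at CT58, where Mmp3 was low. They were 25057 at CT18, where Mmp3 measured 104 and 133, and between 6123 and 15626 in the other pools. The lowest sum, 6123, was that of CT54, where Mmp3 was also low (72.1). The part of skeletal muscle in the course of Mmp3 was not tested. With skeletal muscle, thymus and atrial marker means as covariates the amplitude of Mmp3 was 0.57 ± 0.22 and the peak CT23.3 (limma, adjusted p = 0.459). Of the 4 atrial markers kept, 3 had an unadjusted 24-h p under 0.05 (limma, 0 after adjustment), beside 9.96% of all probe sets. Such covariates can overlap with the fitted cosine, and standard errors were wider with them. A larger amplitude with them, here or in the genes below, does not show a stronger rhythm. Its 2 CT18 arrays differed by 0.36 on the log2 scale, more than the median absolute difference of 0.19 over all probe sets kept.

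The promoter of Mmp3 is shown because it is the only one of those printed here with a match to AP-1, a dimer of Fos and Jun proteins through which stimuli are known to switch on many metalloproteinase genes. The sequence is from RefSeq (GRCm38.p6, plus strand), 250 bases up to the annotated start of the gene at chr9:7445572-7445821, 5′ to 3′, with motif matches in capitals.
Mmp3: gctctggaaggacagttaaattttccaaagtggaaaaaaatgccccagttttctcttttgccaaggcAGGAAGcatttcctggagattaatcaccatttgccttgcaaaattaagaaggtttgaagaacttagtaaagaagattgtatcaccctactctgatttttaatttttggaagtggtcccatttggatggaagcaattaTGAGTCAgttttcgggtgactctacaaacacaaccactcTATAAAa
Motifs were searched on both strands, and their shares are of 32851 promoters of this length. The AP-1 letters TGANTCA were in 6.75%. The ETS letters AGGAAG were in 29.5%. The TATA box, TATAAA, was in 12.4%. The CCAAT box was in 33.8%. The E-box of Clock and Bmal1, CACGTG, was in 6.02%. The D-box of PAR bZIP factors and Nfil3, TTANGTAA, was in 2.06%. The ROR element, ANTAGGTCA, was in 0.548%. Mmp3 held an AP-1, an ETS and a TATA match, beginning 46, 183 and 7 bases before the annotated start. Over all promoters on the plus strand, TATA matches were most frequent near -30 from the annotated start. Where transcription of Mmp3 begins was not measured. The clock motifs (E-box, D-box and ROR element) had 0 matches in the windows of Mmp3, Mmp14, Timp1, Timp2 and Timp3, which says only that these letters are not in these 250 bases.

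The membrane-type metalloproteinase Mmp14 (MT1-MMP) sits on the cell surface, cuts fibrillar collagen and activates the precursor of Mmp2 in a complex with Timp2. Its probe set 160118_at had a mean of 471 ± 114 (SD, n = 12 pools). It measured 466 and 470.2 on the CT18 arrays, 485 at CT22, 414 at CT26, 773 at CT30, 408 at CT34 and 377 at CT38. On the second day it measured 468 at CT42, 571 at CT46, 522 at CT50, 436 at CT54, 352 at CT58 and 379 at CT62. The CT30 pool stood above all others, and the 4 pools of hours 10 and 14 were the lowest of the 12.

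Mmp14 averaged 468 ± 75.7 at hour 2, 605 ± 238 at 6, 380.1 ± 39.6 at 10, 378 ± 1.47 at 14, 468 ± 0.123 at 18 and 528 ± 60.8 at 22 (SD, n = 2 pools each). Hour 6 was 1.60-fold above hour 14, and its 2 pools were CT30 at 773 and CT54 at 436. In the order of levels, neighbouring hours did not overlap in 2 of 5 cases, 22 and 18, and 2 and 10, which is again no result about this gene. The 24-h amplitude was 0.23 ± 0.11 with a peak at CT1.2 and did not pass (limma, adjusted p = 0.629). Without CT30 the amplitude was 0.23 ± 0.06, the peak moved to CT22.8 and the adjusted p was 0.1945. Fitting the same tissue markers as covariates gave an amplitude of 0.37 ± 0.25.

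The inhibitor Timp1, known to be induced by cytokines and growth factors, measured 331 and 318 on the CT18 arrays, 429 at CT22, 359 at CT26, 488 at CT30, 399 at CT34 and 439 at CT38. On the second day it measured 367 at CT42, 386 at CT46, 489 at CT50, 362 at CT54, 272 at CT58 and 185 at CT62. The last pools of the course, CT58 and CT62, were the lowest of all, and CT62 was 2.64-fold below CT50. The pool 24 h before CT62, CT38, was among the highest, so that hour 14 had a mean of 312 ± 179.7 (SD, n = 2).

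Timp1 averaged 424 ± 92.4 at hour 2, 425 ± 89.2 at 6, 336 ± 89.3 at 10, 346 ± 29.7 at 18 and 407 ± 30.2 at 22 (SD, n = 2 pools each). The highest hour, 6, was 1.36-fold above the lowest, 14. The 24-h amplitude was 0.28 ± 0.13 with a peak at CT1.9 and did not pass (limma, adjusted p = 0.638). It was 0.13 ± 0.11 without CT62 (adjusted p = 0.8765) and 0.89 ± 0.26 with those tissue markers as covariates (adjusted p = 0.458). The larger amplitude came with a wider standard error, and the part of these tissues in the values of Timp1 was not tested.

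The inhibitor Timp2, which both blocks metalloproteinases and takes part in the activation of Mmp2, was the least variable of the 5. Its probe set 93507_at measured 236 and 249 on the CT18 arrays, 298 at CT22, 359 at CT26, 334 at CT30, 298 at CT34 and 311 at CT38. On the second day it measured 302 at CT42, 289 at CT46, 283 at CT50, 199 at CT54, 245 at CT58 and 248 at CT62. The 2 pools of hour 6 were far apart, at 334 and 199, and neighbouring hours in the order of levels overlapped in 5 of 5 cases. The 24-h amplitude was 0.09 ± 0.10 with a peak at CT23.6 (limma, adjusted p = 0.899), below that of all but 21.7% of probe sets tested. The amplitude was 0.20 ± 0.23 with the tissue markers as covariates and 0.06 ± 0.10 with arrays centred on their medians.

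The inhibitor Timp3 is bound to the extracellular matrix and is known to block, besides metalloproteinases, the sheddase Adam17. Its probe set 160519_at gave the highest readings of the 5 (mean 1228 ± 254, SD, n = 12 pools), which is no ranking of the genes, since probe sets differ in their response. It measured 1239.8 and 1089 on the CT18 arrays, 1350.0 at CT22, 1375 at CT26, 951 at CT30, 1212 at CT34 and 1484 at CT38. On the second day it measured 1586 at CT42, 1006 at CT46, 834 at CT50, 1022 at CT54, 1147 at CT58 and 1611 at CT62. The highest readings were those of CT38, CT42 and CT62, early to middle subjective night, and the lowest those of CT50 and CT30. Summed atrial markers were 8618 at CT38 and 9029 at CT42, 4488 at CT62, and between 2694 and 4736 in the pools other than CT38 and CT42, and their part in the course of Timp3 was not tested.

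Timp3 averaged 1104 ± 383 at hour 2, 987 ± 50.5 at 6, 1179 ± 45.9 at 10, 1547 ± 90.1 at 14, 1375 ± 298 at 18 and 1178 ± 243 at 22 (SD, n = 2 pools each). Hour 14 was 1.57-fold above hour 6, and neighbouring hours in the order of levels overlapped in 5 of 5 cases. The 24-h amplitude was 0.29 ± 0.09 with a peak at CT15.8. Its p was 0.0236, rank 426 of 7453, and it did not pass after adjustment (limma, adjusted p = 0.413). With 1 array left out, the amplitude ran from 0.23 ± 0.09 without CT50 (limma, adjusted p = 0.594) to 0.38 ± 0.08 without CT26 (limma, adjusted p = 0.1299). The CT26 pool was high against the other pool of hour 2. Without CT62 the amplitude was 0.25 ± 0.10 (limma, adjusted p = 0.644). Adding the tissue markers as covariates gave 0.58 ± 0.15 (adjusted p = 0.4025).

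**Figure D2:**
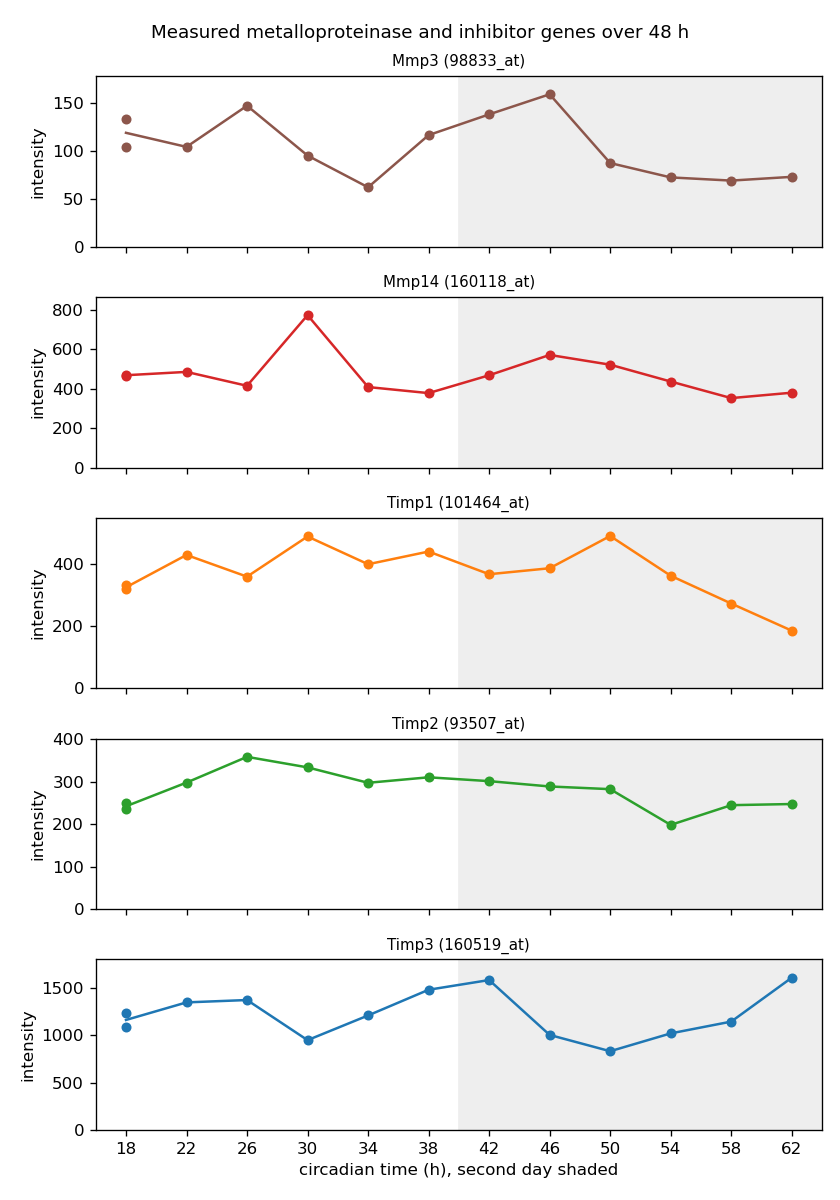
Deposited intensity of the 5 measured genes against circadian time in hours, with 1 point per array and a line through the pools. Mmp14 has a single high pool at CT30 (773), Timp1 falls to 185 at CT62, and Timp3 is highest at CT62 (1611) and CT42 (1586).

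In total 0 of the 5 genes passed for a 24-h rhythm with limma, and 2, Mmp3 and Timp3, had an unadjusted p under 0.05. Over all probe sets tested 0.349% passed after adjustment, and 9.96% had an unadjusted p under 0.05. The median amplitude of the 5 was 0.28 on the log2 scale, beside 0.18 over all probe sets tested. The fitted peaks of Mmp3, Mmp14, Timp1 and Timp2 fell between CT21.3 and CT1.9 across the turn from subjective night to day, and that of Timp3 at CT15.8. These peaks carry no error here, and the share of all probe sets with a peak in that range was not counted. The amplitude of Timp2 was no larger than its standard error, so its peak is poorly set. It was CT20.9 without CT26 and CT3.1 without CT54. A shared time of peak was not tested. A 12-h component was tested in the same way, and 0 of the 5 passed or had an unadjusted p under 0.05, beside 5.84% of all probe sets at that unadjusted level. On the scale of log2 values the SD over pools was 0.46 for Mmp3, 0.39 for Timp1, 0.31 for Mmp14, 0.30 for Timp3 and 0.23 for Timp2, beside a median of 0.33 over all probe sets kept.

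**Figure D3:**
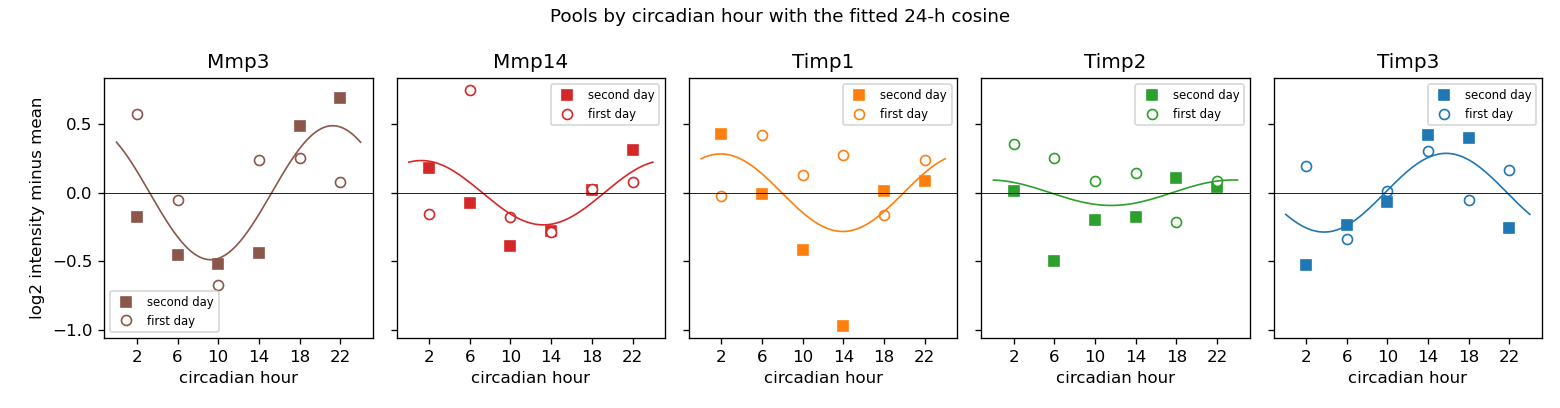
Log2 intensity minus the mean of the gene against circadian hour, filled squares for the second day and open circles for the first, with the fitted 24-h cosine as a line. Timp3 has its fitted peak at CT15.8, the other genes between CT21.3 and CT1.9, and none of the 5 curves passed the adjusted test.

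The second day of sampling was then compared with the first. For all 5 genes the mean was lower on the second day, the pools of the 2 days overlapped, and 0 passed with limma, after adjustment or at an unadjusted p under 0.05. The shared direction is no result about these genes. The median log2 difference of all probe sets tested was also negative (-0.03), and their share lower on the second day was not counted. With arrays centred on their medians, the differences of the 5 genes ran from -0.26 (Timp1) to -0.04 (Mmp14). Over all probe sets 0% passed after adjustment, and 7.54% had an unadjusted p under 0.05 (3.23% higher and 4.31% lower on the second day). The pools of the days did not overlap in 0.389% of all probe sets, with the second day higher in 0.121% and lower in 0.268%. Timp2 averaged 261 ± 38.05 on the second day and 307 ± 39.4 on the first (SD, n = 6 pools each), a log2 difference of -0.24 ± 0.13 (limma, adjusted p = 0.691). In 1 of the 6 pairs formed by pools 24 h apart, Timp2 was higher on the second day, and without CT54 its difference was -0.15 ± 0.12. Timp1 averaged 344 ± 104 on the second day and 406 ± 58.7 on the first, a difference of -0.29 ± 0.18 (limma, adjusted p = 0.714) with 2 of 6 pairs higher. Without CT62 that difference was -0.16 ± 0.15.

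The proteases and Timp3 differed less between the days. Mmp3 averaged 99.5 ± 38.8 on the second day and 107 ± 28.3 on the first (log2 difference -0.14 ± 0.20). With 1 array left out, that difference ran from -0.26 (without CT22) to -0.05 (without CT26), and it was -0.01 with the floor at the 40th percentile and -0.06 after quantile normalization. Mmp14 averaged 455 ± 83.3 on the second day and 488 ± 145 on the first (-0.08 ± 0.16). Timp3 averaged 1201 ± 324 on the second day and 1256 ± 189 on the first (-0.09 ± 0.13). In each of these 3 genes, 3 of the 6 pairs were higher on the second day. The median difference of the 5 genes was -0.14 and that of all probe sets tested was -0.03. Without CT30 the difference of Mmp14 was 0.08 ± 0.09, and without CT26 that of Timp3 was 0.01 ± 0.11.

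**Figure D4:**
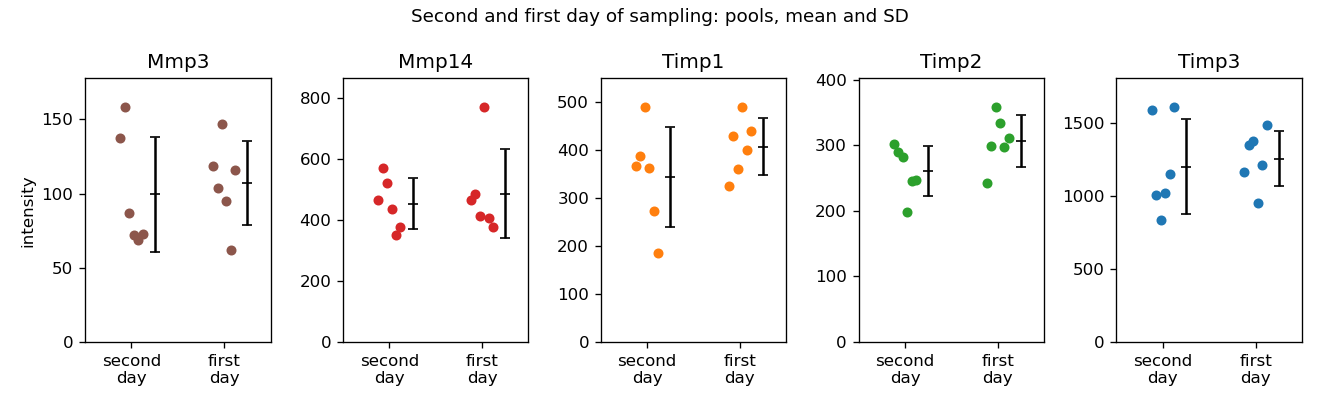
Intensity of the 6 pools of the second day, left, and of the first day, right, for each measured gene, with the mean and SD beside the points. The pools of the 2 days overlap for every gene, and the first-day spread of Mmp14 (SD 145) comes with 1 pool at 773.

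Whether the 24-h rhythm differed between the days was tested by an interaction term. With limma 0 of the 5 genes passed, and 1, Timp1, had an unadjusted p under 0.05 (0.0356, adjusted p = 0.690), beside 6.98% of all probe sets at that unadjusted level (0% after adjustment). In Timp1 the second-day pools ran from 489 at CT50 to 185 at CT62, while those of the first day lay between 325 and 488.

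The genes were then compared with each other over the 12 pools, as 10 pairs, of which 8 had a positive r and 2 a negative one. No pair passed after Benjamini-Hochberg adjustment over the pairs, by Pearson or Spearman correlation with 100000 permutations (two-sided), and 1 had an unadjusted p under 0.05 by either. That pair was Mmp14 and Timp3, which ran in opposite directions (r = -0.58, permutation p = 0.0464, adjusted p = 0.2435, and rho = -0.59, permutation p = 0.0455, adjusted p = 0.3099). Without CT30 and CT58, the pools farthest from the median of Mmp14, r was -0.65. It was -0.49 over the 6 pools of the second day (exact permutation p = 0.325) and -0.87 over those of the first (exact permutation p = 0.0278). After the tissue markers were regressed out it was -0.50 (permutation p = 0.0949).

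Timp1 and Mmp14 tended the same way without passing (r = 0.58, permutation p = 0.0592, adjusted p = 0.2435, and rho = 0.53, permutation p = 0.0800, adjusted p = 0.3099). Without CT30 and CT58 r was 0.43, and it was 0.78 on the second day and 0.50 on the first (exact permutation p = 0.0611 and 0.342). Mmp3 and Timp2 had r = 0.51 and rho = 0.45 (permutation p = 0.0903 and 0.149, adjusted p = 0.2435 and 0.3099). Without CT34 and CT46 that r was 0.70, and it was 0.74 on the second day and 0.17 on the first (exact permutation p = 0.0958 and 0.722). Timp1 and Timp3, the other negative pair, had r = -0.49 and rho = -0.43 (permutation p = 0.101 and 0.162, adjusted p = 0.2435 and 0.3099). Without CT62 and CT58 that r was -0.39, and it was -0.71 on the second day and -0.24 on the first (exact permutation p = 0.107 and 0.658). In CT30 and CT50 both Mmp14 and Timp1 were high and Timp3 low. The other 6 pairs had r between 0.17 and 0.48. All pairs share the same 12 pools and arrays.

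**Figure D5:**
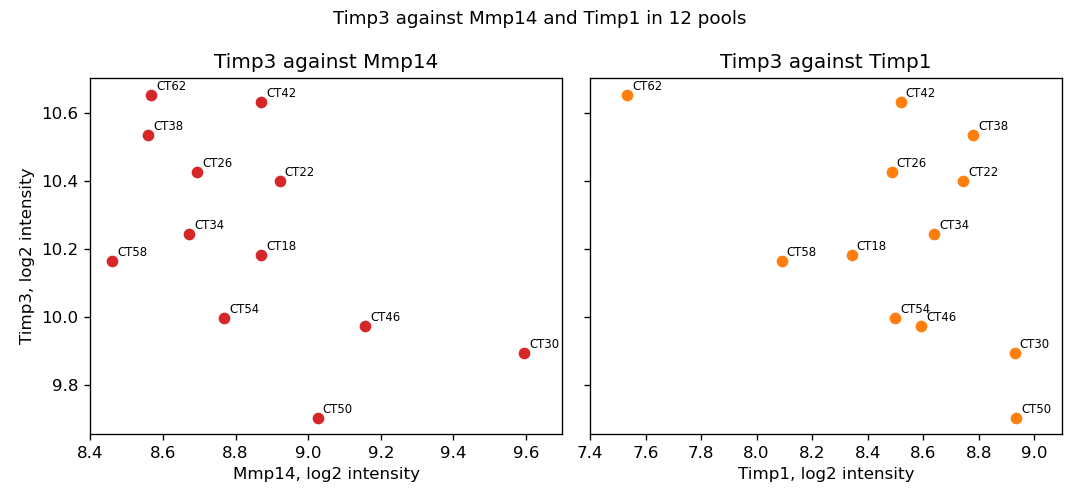
Log2 intensity of Timp3 against that of Mmp14 (left) and Timp1 (right), 1 labelled point per pool. CT30 and CT50 lie at the lower right in both panels, and CT62 at the upper left, with r = -0.58 for Mmp14 and -0.49 for Timp1, neither past the adjusted threshold.

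The promoters of Mmp14, Timp1 and Timp3 are shown because the pair with the lowest and the pair with the highest r lie among these genes. Each is the RefSeq stretch of 250 bases up to the annotated start (GRCm38.p6, plus strand, chr14:54431348-54431597 for Mmp14, chrX:20869916-20870165 for Timp1 and chr10:86300162-86300411 for Timp3), 5′ to 3′, with motif matches in capitals.
Mmp14: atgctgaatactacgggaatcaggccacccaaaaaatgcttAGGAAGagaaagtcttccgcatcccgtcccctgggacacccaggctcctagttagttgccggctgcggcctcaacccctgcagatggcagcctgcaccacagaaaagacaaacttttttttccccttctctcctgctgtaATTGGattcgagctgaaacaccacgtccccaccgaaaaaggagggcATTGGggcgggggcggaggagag
Timp1: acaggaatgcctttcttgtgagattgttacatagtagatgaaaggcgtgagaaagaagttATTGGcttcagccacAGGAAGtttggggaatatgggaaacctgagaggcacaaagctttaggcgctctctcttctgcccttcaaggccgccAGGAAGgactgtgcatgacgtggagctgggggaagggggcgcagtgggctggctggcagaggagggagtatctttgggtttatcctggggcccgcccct
Timp3: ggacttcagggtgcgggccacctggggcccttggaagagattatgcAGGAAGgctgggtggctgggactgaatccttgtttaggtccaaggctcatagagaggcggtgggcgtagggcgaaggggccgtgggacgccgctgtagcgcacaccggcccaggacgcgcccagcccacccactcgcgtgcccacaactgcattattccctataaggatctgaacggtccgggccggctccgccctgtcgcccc
Mmp14 held 1 ETS match and 2 CCAAT matches, Timp1 held 2 ETS matches and 1 CCAAT match, and Timp3 held 1 ETS match. Timp2 held 1 CCAAT match. The ETS letters, found in 29.5% of promoters, were thus in the windows of all 3 genes, and AP-1, E-box, D-box and ROR letters had 0 matches in them. The promoter table matched 5 of the 7 genes, and Mmp2 and Mmp9 were not among them.

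For each measured gene the 3 genes with the most similar course were taken by Pearson correlation over the 12 pools, members left out. Most like Mmp3 were Ercc1 (r = 0.87), a DNA repair protein, Olfr140 (0.83), an olfactory receptor, and Faf1 (0.83), of which Ercc1 lay below 0 in at least 1 pool (lowest -52.5). Most like Mmp14 were Plk2 (0.92), a polo-like kinase, Snx4 (0.90), a sorting nexin, and Mfng (0.90), a glycosyltransferase that modifies Notch. Most like Timp1 were Bmp4 (0.92), a growth factor of the TGF-beta family, Med24 (0.92), a Mediator subunit, and Ube4b (0.88), a ubiquitin ligase. Most like Timp2 were Syt3 (0.85), a synaptotagmin, Serpina1b (0.84), a serine protease inhibitor, and Egfr (0.81), the receptor of epidermal growth factor. Most like Timp3 were Zbtb16 (0.91), a zinc finger transcription factor, P4ha1 (0.90), a prolyl hydroxylase of collagen, and Xdh (0.89), xanthine dehydrogenase. These are the highest correlations out of all probe sets kept and describe these 12 pools only.

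Other genes of the pathway were taken from lists. Of 17 further metalloproteinases and TIMPs, 9 were on the table and 2 were kept, and 0 passed for a 24-h rhythm or for the day with limma (0 also at an unadjusted p under 0.05). Mmp11 (stromelysin 3), which is made by stromal cells, ran from 151 to 486, and its fitted 24-h amplitude was 0.53 ± 0.20, peaking at CT23.0 (limma, adjusted p = 0.5395). Mmp12, the macrophage elastase, ran from 12.4 to 95.2 (95339_r_at), and its other probe set was not kept. Mmp7, Mmp8, Mmp10, Mmp13, Mmp16, Mmp17 and Mmp24 were on the table and were not kept.

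Of 15 genes listed as activators, inducers and other inhibitors of metalloproteinases, 12 were on the table and 8 were kept, with 0 passing in either test (limma). Their median amplitude was 0.20 and their median day difference -0.16. The smallest p was that of Pcolce, an enhancer of procollagen processing (0.22 ± 0.08, CT1.5, limma, unadjusted p = 0.0448, adjusted p = 0.492). Furin, the convertase that removes the propeptide of Mmp14, had 0.18 ± 0.10 and a peak at CT22.4 (limma, adjusted p = 0.686), and its day difference was -0.30 ± 0.11 (limma, unadjusted p = 0.0204, adjusted p = 0.6402).

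All 18 matrix substrates listed were on the table and 17 were kept. Of these 1 passed for a 24-h rhythm (limma), beside 0.349% of all probe sets. An unadjusted p under 0.05 was found for 2 of the 17, beside 9.96% of all probe sets. The substrate that passed was Eln, elastin, with 0.46 ± 0.06 and a peak at CT2.1 (limma, adjusted p = 0.0130), while its dimmer probe set had 0.47 ± 0.11 and did not pass (adjusted p = 0.183). The median amplitude of the substrates was 0.09 and their median day difference -0.04. For the day 0 passed (limma), and 1 had an unadjusted p under 0.05, beside 7.54% of all probe sets. Of 18 AP-1, ETS and NF-kB factors and cytokines, 17 were on the table and 9 were kept, with 0 passing in either test (limma). Fos, an AP-1 subunit, ran from 48.3 to 323, and its amplitude was 0.65 ± 0.22 and its peak CT1.4 (limma, unadjusted p = 0.0341, adjusted p = 0.466). Jund, another AP-1 subunit, had 0.11 ± 0.05 and a peak at CT3.8 (limma, adjusted p = 0.615).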

How the data were processed

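The authors deposited linear intensities, 1 for each probe set on each array. The software and scaling behind them were not given in the sources used here. The deposited values had a 2% trimmed mean between 200.03 and 200.04 on every array and were used as deposited. Of 12488 probe sets, 66 controls were left out. GEO's platform annotation gave 10833 of the others 1 gene and 396 several, and did not list 1193. Intensities were floored at the 20th percentile of positive values, log2 was taken, the CT18 arrays were averaged, and probe sets with a mean at or above the 40th percentile were kept.

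With limma 3.58.1 in R 4.3.3 (eBayes with trend), the 24-h cosine and sine, the day, a 12-h component and day by rhythm were fitted to all 7453 probe sets kept (9, 8, 6 and 6 residual degrees of freedom), with Benjamini-Hochberg adjustment over all of them and a threshold of 0.05. The fitting code was tried on simulated pools with known rhythms and day differences. Their scatter was independent and had no floor, unlike these data, so the trial does not show how small a rhythm could be found here. With 1 pool at each time, the error in these tests is the scatter of pools about the fitted curve, and the number of arrays limits the precision. A gene in a list was represented by its brightest probe set kept. Every probe set of the 7 genes is named, with the 3 most similar genes of each, and of each list those past the threshold or else the 2 with the smallest 24-h p. The genes and lists were chosen with earlier results of these data known. Alternatives changed scaling, floor, scale, filter, variance trend, tissue covariates (means of skeletal muscle, thymus and atrial markers), the block for circadian hour and the arrays used.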

Additional observations from a re-analysis of the deposited data

Results flagged for a closer look

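Mmp14 measured 773 at CT30, far from the other 5 pools of the first day, which lay between 377 and 485. The gap to the nearest pool was 0.728 of the whole range of the 6, above Dixon's critical value of 0.625. This was 1 of 10 groups of pools examined (5 genes on 2 days), and chance alone flags about 1 in 20 for draws from 1 normal distribution. The 6 pools of a day were of 6 different circadian hours, so that rate need not hold here. How often the rule flags other probe sets was not counted. The pool 24 h later, CT54, measured 436. At CT30 Timp1 was also high (488) and Timp3 low (951). The cause was not tested.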

How the results depend on the processing

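The 5 measured genes passed in none of the alternatives run for the 24-h rhythm or the day, and 0 of the 10 pairs passed in any of those run. The lowest adjusted p for the rhythm was 0.1299 (Timp3, without CT26). Fitted peaks stayed within 6 h of those reported throughout. Mmp3 was not tested with the filter at the 60th percentile, which it did not pass. The day difference changed sign for Mmp14 without CT30 (0.0812) and for Timp3 without CT26 (0.0083). With 1 array left out, it ran from -0.1825 to 0.0812 for Mmp14 and from -0.1447 to 0.0083 for Timp3. Array medians on the log2 scale lay from -0.11 to 0.12 around the overall median, and centring on them left each gene's direction. Over all probe sets, the 24-h count of 26 was 7 with arrays centred, 9 with the floor at the 40th percentile, 4 without the filter, 4 without the trend, 7 with tissue covariates and 4 without CT18, CT34 and CT58. That last choice was made after seeing the data, and it also removes circadian hour 10. Leaving out 1 array gave 8 to 40, by name 40 without CT30, 10 without CT34, 9 without CT42, 17 without CT46, 8 without CT54, 14 without CT58 and 13 without CT62. The day count ran from 0 to 2 (2 without CT42). The 12-h count was 1 on the inverse hyperbolic sine scale, 2 without the filter, 1 with the filter at the 60th percentile and 0 to 1 with 1 array left out (1 without CT54). The count for rhythm by day was 2 with the floor at the 40th percentile. With circadian hour as a block, which pairs pools 24 h apart (5 residual degrees of freedom, also chosen after seeing the data), the day count was 0 (limma, 601 at an unadjusted p under 0.05), and the 5 genes kept their differences with adjusted p from 0.694 to 0.891. By replicate number no paired analysis was possible because the groups share only number 1 and only CT18 has a second array.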

Other observations

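ADAM and ADAMTS proteases, relatives of the metalloproteinases that shed membrane proteins or cut proteoglycans, were described from a list of 11 genes. Of these, 8 were on the table and 5 were kept, and 0 passed for a 24-h rhythm or the day with limma (0 also at an unadjusted p under 0.05). Adam9 ran from 166 to 266 with an amplitude of 0.21 ± 0.08 on the log2 scale and a peak at CT18.0 (limma, adjusted p = 0.5295 over all probe sets). Adam12 ran from 41.6 to 131 with 0.40 ± 0.21 and a peak at CT19.9 (limma, adjusted p = 0.679). The median amplitude of the 5 was 0.20.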
